A study of Mus musculus with 9 samples.

Results

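The genes described here are the axon guidance cues and receptors whose names fall in the semaphorin (Sema3 to Sema7), plexin, neuropilin, Slit, netrin, Eph receptor and ephrin families. The name rule found 56 of the 17093 genes listed in the deposited tables, 55 of them protein-coding and 1, Plxna4os1, an antisense RNA gene inside Plxna4. The tables are one per pair of groups and held 56 of these genes for inhibitor-treated against injured arteries, 55 for injured against sham arteries and 52 for inhibitor-treated against sham arteries. Epha6, Epha8, Epha10, Ntn3 and Ntn5 were not analysed here.

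The 9 bulk RNA-seq libraries, in 3 groups of 3, came from the smooth muscle wall (media) of femoral arteries of C57BL/6 mice. The inhibitor-treated group had wire injury of the artery and VS-4718, an inhibitor of focal adhesion kinase (FAK), at 50 mg/kg by gavage, with 2 doses a day, until collection at day 14. The injured group had the same wire injury and was collected at day 14, and the sham group was operated on without the injury. The labels name a citrate vehicle without saying which of the groups without inhibitor received it, and give neither age nor sex. The study asks how FAK activity bears on transcription while smooth muscle cells change their state. Per the labels, fat and adventitia were stripped, and a flush of the lumen with TRIzol was meant to remove endothelium and immune cells. Replicates carry numbers, but nothing says that each library is a separate animal, so p-values measure the spread between these libraries, which may be technical. In bulk RNA, fewer cells of a type and less RNA per cell cannot be told apart.

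Semaphorins are secreted (class 3) or membrane-bound (classes 4 to 7) proteins that signal mainly through plexins, and most class 3 members need a neuropilin as co-receptor, which also binds vascular endothelial growth factor. Netrins act through the Dcc, neogenin and Unc5 receptors, and Slits through the Robo receptors. Ephrins are membrane-anchored ligands of the Eph receptor tyrosine kinases and signal in both directions between touching cells. Outside the nervous system these families control cell adhesion, migration and vessel patterning: semaphorin 3E acts through plexin D1 in vessels, and ephrin-B2 and EphB4 mark arterial and venous endothelium.

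Libraries held between 14676891 and 21248740 recovered reads. A few libraries stood apart. Injured replicate 2 had a summed level of skeletal muscle markers of 521137 normalised counts, against at most 60756 in any other library. Inhibitor-treated replicate 3 had a hepatocyte marker sum of 24082, against 446 and 584 in the other inhibitor-treated libraries. Sham replicate 3 had the highest adipocyte sum of its group, 72245, against 30834 and 35588. The counts of called genes are therefore also given without these 3 libraries. Skeletal muscle and adipocyte sums also differed between groups, with values given beside the other markers. Leaving out these 3 libraries does not make the groups alike in them.

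Guidance genes differed between injured and sham arteries in both directions. In limma's moderated test, with adjustment over all genes and a threshold of 0.05, 28 of the 55 tested were higher and 13 lower in injured arteries, which is 74.5%, against 37.3% of all 16278 genes tested (20.6% higher and 16.8% lower). Under quantile normalisation, with a median of all genes of −0.10 on the log2 scale, the split was 19 higher and 14 lower of 55, against 38.0% of all genes called. The rises of Sema4c, Sema5b, Plxnb3, Plxna4os1, Slit1, Ephb1, Ephb3, Efna4 and Efnb3 were not called there. Without the libraries that stood apart the split was 19 higher and 11 lower of 54 tested, 55.6% against 25.6% of all genes. The median log2 fold change of the members was 0.60, against −0.003 over all genes, and the members ranged from −2.48 to 2.65. The 6 libraries separated without overlap for 45 members, as they did for 51.3% of all genes.

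Between inhibitor-treated and injured arteries, 13 of 56 members were higher and 25 lower, together 67.9%, against 36.1% of all 16901 genes tested (17.6% higher and 18.5% lower). Without the libraries that stood apart the counts were 11 and 20, or 55.4%, against 19.9% of all genes. The members' median log2 fold change was −0.68, against 0.01 over all genes, with a range from −2.51 to 2.42. Between inhibitor-treated and sham arteries, 2 of 52 members were higher and 1 was lower, together 5.77%, against 6.08% of all 16166 genes (5.15% higher and 0.934% lower), and the median was 0.02. That share is close to the share of all genes. At an unadjusted p under 0.05 the count was 18 of 52 members (34.6%), against 3410 of the 16166 genes (21.1%). Each group of libraries enters a pair of the comparisons, so the fold changes of one gene in different comparisons are not independent. Beside a log2 fold change, "with the inhibitor" stands for inhibitor-treated against injured arteries and "with injury" for injured against sham arteries. No test was made of whether the members differ from other genes.

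**Figure D1:**
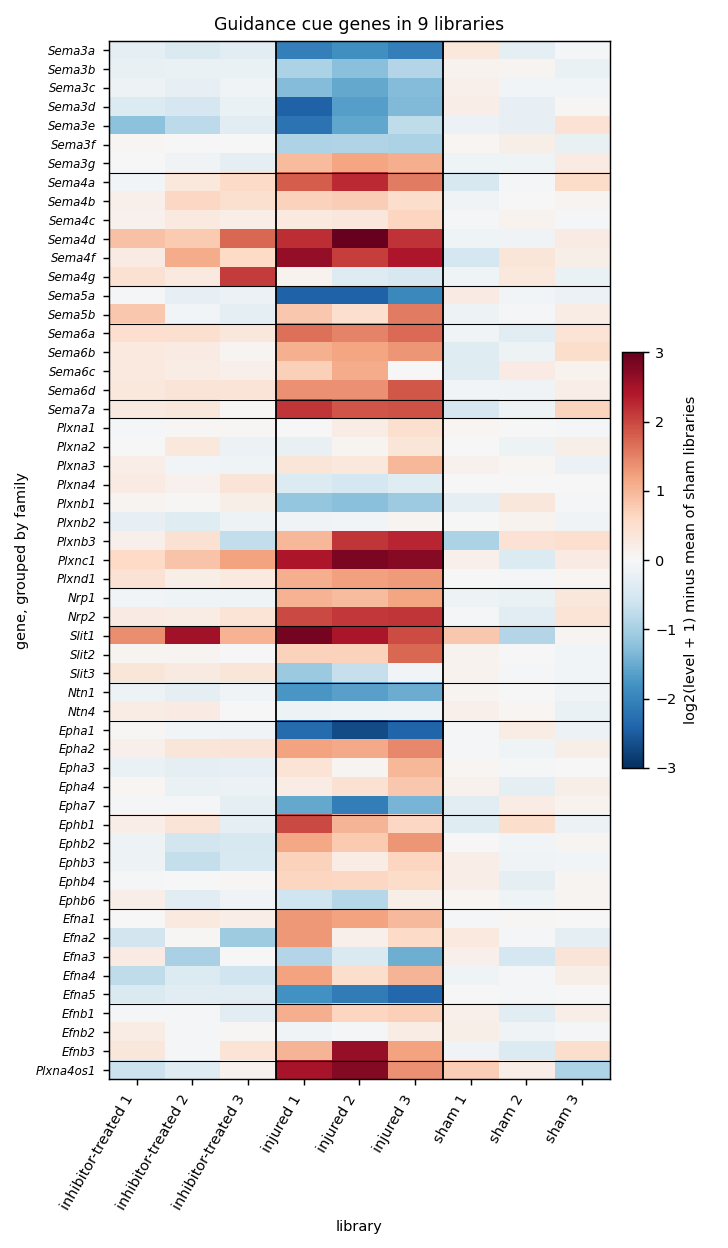
Level of each guidance gene in each of the 9 libraries (columns: inhibitor-treated, injured and sham replicates 1 to 3), as log2(normalised count + 1) minus the mean of the 3 sham libraries, on a colour scale from −3 (blue) to 3 (red). Rows are grouped by family, without Epha5, which has no sham value. Blue and red cells are concentrated in the 3 injured columns. Slit1 in inhibitor-treated replicate 2 and Sema4g in inhibitor-treated replicate 3 are among the red cells outside them.

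The bases before the start of transcription are shown for a pair of members lower in injured arteries (Sema5a and Epha1, the second with values that are uncertain for a reason given with them) and a pair higher there (Sema7a and Plxnd1). RefSeq promoters (GRCm38.p6) were matched for 47 of the 56 members, in 61 windows of 250 bases. Capitals mark matches to 4 motifs searched on both strands: the serum response factor CArG box, the TEAD motif GGAATG, the AP-1 motif TGACTCA and the E-box CACCTG.
Epha1: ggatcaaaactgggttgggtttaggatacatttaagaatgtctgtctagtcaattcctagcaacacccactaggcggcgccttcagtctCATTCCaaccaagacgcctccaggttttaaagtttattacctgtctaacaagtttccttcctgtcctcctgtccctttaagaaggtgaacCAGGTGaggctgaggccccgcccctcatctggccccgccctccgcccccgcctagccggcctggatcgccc
Sema5a: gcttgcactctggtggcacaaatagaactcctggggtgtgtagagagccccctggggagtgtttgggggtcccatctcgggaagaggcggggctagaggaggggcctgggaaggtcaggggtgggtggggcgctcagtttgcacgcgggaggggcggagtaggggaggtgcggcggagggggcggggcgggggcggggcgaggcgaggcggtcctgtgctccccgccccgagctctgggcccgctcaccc
Sema7a: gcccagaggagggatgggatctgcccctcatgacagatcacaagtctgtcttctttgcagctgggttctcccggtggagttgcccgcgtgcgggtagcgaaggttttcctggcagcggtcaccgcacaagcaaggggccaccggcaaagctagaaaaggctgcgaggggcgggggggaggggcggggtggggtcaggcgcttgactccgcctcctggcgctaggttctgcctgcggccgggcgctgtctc
Plxnd1: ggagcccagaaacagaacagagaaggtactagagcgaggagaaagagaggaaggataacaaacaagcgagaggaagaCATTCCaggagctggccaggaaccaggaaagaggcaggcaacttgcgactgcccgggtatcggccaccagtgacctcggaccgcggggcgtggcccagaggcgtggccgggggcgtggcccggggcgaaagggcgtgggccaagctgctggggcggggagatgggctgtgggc
The windows are chr6:42373269-42373518 (minus strand), chr15:32244563-32244812 (plus strand), chr9:57939862-57940111 (plus strand) and chr6:115995006-115995255 (minus strand). Epha1 held a TEAD match that begins 161 bases before the start and an E-box match that begins 71 bases before it, and Plxnd1 held a TEAD match at 173 bases. Sema5a and Sema7a held 0 matches. Over all members the CArG box was in 1 of 61 windows (1.64%, Sema4d), against 1.47% of the 32851 promoters in the table. The TEAD motif was in 11.5% against 12.6%, the AP-1 motif in 3.28% against 4.46% and the E-box in 13.1% against 17.2%. A match is a run of letters and not a measured binding site.

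Semaphorins were called in both directions within and between classes, and no test was made of a difference between classes. Over all genes the calls were 17.6% higher and 18.5% lower in inhibitor-treated against injured arteries, and 20.6% higher and 16.8% lower in injured against sham arteries. Of the 7 class 3 genes, 6 were lower and 1, Sema3g, was higher in injured than in sham arteries. In inhibitor-treated against injured arteries 5 were higher and 1, Sema3g, was lower. Of the 11 genes of classes 4, 6 and 7, 9 passed the test in injured against sham arteries, every one of them higher. In inhibitor-treated against injured arteries 7 of the 11 passed, every one of them lower. The class 5 genes, also membrane-bound, were split: Sema5a was lower and Sema5b higher in injured than in sham arteries.

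Sema3a, the founding axon repellent of vertebrates, had 448, 403 and 431 normalised counts in inhibitor-treated libraries, 129, 150 and 131 in injured libraries and 669, 449 and 527 in sham libraries. The injured libraries were the lowest and overlapped neither other group. Its log2 fold change was 1.65 ± 0.13 (SE; adjusted p = 0.00014) in inhibitor-treated against injured arteries and −1.99 ± 0.18 (adjusted p = 8.12e-05) in injured against sham arteries. Sema3c, known for its part in forming the cardiac outflow tract, had 2440, 2285 and 2495 with the inhibitor, 1085, 934 and 1083 in injured and 3011, 2523 and 2561 in sham libraries. On the log2 scale Sema3c differed by 1.22 ± 0.10 (adjusted p = 0.000168) with the inhibitor and by −1.39 ± 0.12 (adjusted p = 7.06e-05) with injury. Sema3d levels were 1626, 1525 and 1873 with the inhibitor, 404, 689 and 870 in injured and 2499, 1830 and 2214 in sham libraries, again with the injured libraries apart. Its log2 fold change of 1.42 ± 0.26 with the inhibitor (adjusted p = 0.00531) had an adjusted p of 0.0513 without the libraries that stood apart.

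Sema3f, a ligand that prefers neuropilin 2, had the highest mean of the class over the 9 libraries: 3069, 2977 and 2963 with the inhibitor, 1568, 1610 and 1548 in injured and 3104, 3362 and 2554 in sham libraries. Sema3f had a log2 fold change of 0.93 ± 0.08 (adjusted p = 0.000187) with the inhibitor and of −0.93 ± 0.12 (adjusted p = 0.000623) with injury. Sema3b, its neighbour on chromosome 9, had 1340, 1351 and 1348 with the inhibitor, 809, 649 and 845 in injured and 1677, 1661 and 1357 in sham libraries. For both genes the injured libraries lay below all others. Sema3e, the plexin D1 ligand, was low, with 40.8, 56.0 and 78.2 with the inhibitor, 20.3, 32.2 and 57.5 in injured and 86.1, 82.1 and 132 in sham libraries. It was lower in injured than in sham arteries (−1.52 ± 0.39, adjusted p = 0.0155), but not without sham replicate 3 (adjusted p = 0.0606) or without the libraries that stood apart (adjusted p = 0.108), and its inhibitor-treated and injured libraries overlapped.

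Sema3g, made mainly by endothelium of arteries, ran the other way. It had 892, 825 and 723 normalised counts with the inhibitor, 1694, 2002 and 1882 in injured and 811, 810 and 1043 in sham libraries. All 3 injured libraries exceeded every other library. The log2 fold changes were −1.19 ± 0.11 (adjusted p = 0.000327) for inhibitor-treated against injured and 1.07 ± 0.13 (adjusted p = 0.000458) for injured against sham. Endothelial markers differed the same way. Their summed level over 10 genes was 31551 to 32715 with the inhibitor, 37953 to 50858 in injured and 25331 to 38712 in sham libraries. Of the 10, 7 were higher in injured than in sham arteries, against 20.6% of all genes. The part of endothelial cells in the Sema3g result was not tested.

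Sema5a, a membrane semaphorin with thrombospondin repeats and the most abundant class 5 gene, showed one of the largest differences. Its levels were 2596, 2257 and 2362 with the inhibitor, 499, 499 and 696 in injured and 3181, 2521 and 2384 in sham libraries. The injured libraries had less than any other, and the inhibitor-treated and sham libraries overlapped. The log2 fold change was 2.11 ± 0.15 (adjusted p = 0.000115) for inhibitor-treated against injured and −2.27 ± 0.17 (adjusted p = 4.06e-05) for injured against sham. Sema5b was low, at 31.8 to 69.3 with the inhibitor, 55.9 to 117 in injured and 35.0 to 45.7 in sham libraries. Its rise in injured against sham arteries (0.95 ± 0.31, adjusted p = 0.0436) passed only without injured replicate 2 when a single library was left out, and otherwise had adjusted p-values of 0.0638 to 0.133. Under quantile normalisation Sema5b differed by 0.38 (adjusted p = 0.406).

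Of the class 4 genes, Sema4d and Sema4a, both known from immune cells, were among the members with the largest rises. Sema4d had 159, 150 and 286 normalised counts with the inhibitor, 403, 734 and 389 in injured and 79.1, 79.7 and 102 in sham libraries. The 3 groups did not overlap. The log2 fold change was −1.35 ± 0.33 (adjusted p = 0.0161) for inhibitor-treated against injured and 2.47 ± 0.26 (adjusted p = 0.000186) for injured against sham. The first was not called without inhibitor-treated replicate 1 (adjusted p = 0.0626) or 2 (adjusted p = 0.0589). Sema4a had 135, 178 and 212 with the inhibitor, 507, 675 and 418 in injured and 101, 136 and 209 in sham libraries. The fitted log2 fold change of Sema4a was −1.60 ± 0.23 (adjusted p = 0.00169) with the inhibitor and 1.86 ± 0.28 (adjusted p = 0.00114) with injury, with the injured libraries above all others.

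Sema4f, a low-level member, had 16.1 to 30.3 with the inhibitor, 59.7 to 88.3 in injured and 9.01 to 17.6 in sham libraries, with log2 fold changes of −1.72 ± 0.31 (adjusted p = 0.00484) with the inhibitor and 2.36 ± 0.34 (adjusted p = 0.000898) with injury. Sema4c, a plexin B2 ligand with the highest mean of the class over the 9 libraries, differed little: 433, 485 and 453 with the inhibitor, 483, 497 and 613 in injured and 376, 421 and 383 in sham libraries. Its rise with injury (0.42 ± 0.14, adjusted p = 0.0406) was lost on leaving out injured replicate 2 or 3 or any sham library (adjusted p = 0.0662 to 0.13), and 7.27% of its exonic bases overlap a gene on the other strand. The rise was also lost under quantile normalisation (adjusted p = 0.0688) and without the libraries that stood apart (adjusted p = 0.161). Sema4b was higher in injured than in sham arteries (0.65 ± 0.14, adjusted p = 0.00759), with an adjusted p of 0.0657 without the libraries that stood apart. Sema4g had 67.4, 59.6 and 211 with the inhibitor, 52.5, 37.0 and 34.4 in injured and 44.1, 61.0 and 42.5 in sham libraries, and passed no test. Its high value was in inhibitor-treated replicate 3, the library with the high hepatocyte marker sum, whose part was not tested.

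The transmembrane class 6 genes, whose products bind A-type plexins, were higher in injured than in sham arteries for 3 of 4 genes and lower in inhibitor-treated than in injured arteries for 3. The shares of all genes were 20.6% and 18.5%. Sema6d, with the highest mean of the class over the 9 libraries, had 341, 359 and 356 with the inhibitor, 706, 711 and 995 in injured and 256, 253 and 314 in sham libraries. Sema6c had the higher group mean with the inhibitor (411 against 352) and in sham libraries (357 against 274). With the inhibitor the log2 fold change of Sema6d was −1.17 ± 0.15 (adjusted p = 0.00117), and with injury it was 1.53 ± 0.17 (adjusted p = 0.000243). Sema6a had 296, 291 and 264 with the inhibitor, 659, 585 and 683 in injured and 195, 166 and 280 in sham libraries, with log2 fold changes of −1.17 ± 0.11 (adjusted p = 0.000349) with the inhibitor and 1.61 ± 0.20 (adjusted p = 0.000391) with injury. Sema6b had 320, 312 and 277 with the inhibitor, 548, 594 and 664 in injured and 202, 236 and 379 in sham libraries. Its log2 fold changes were −0.98 ± 0.12 (adjusted p = 0.000918) with the inhibitor and 1.18 ± 0.23 (adjusted p = 0.00383) with injury. Sema6c passed neither test, and its injured libraries ran from 356 to 768, across the range of the other groups.

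Sema7a, a lipid-anchored semaphorin that binds plexin C1 and integrin beta 1, had 170, 180 and 146 normalised counts with the inhibitor, 635, 529 and 539 in injured and 100, 127 and 224 in sham libraries. Every injured library lay far above the others, of which sham replicate 3 was the highest. On the log2 scale Sema7a differed by −1.77 ± 0.14 (adjusted p = 0.000144) with the inhibitor and by 1.98 ± 0.27 (adjusted p = 0.000727) with injury.

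**Figure D2:**
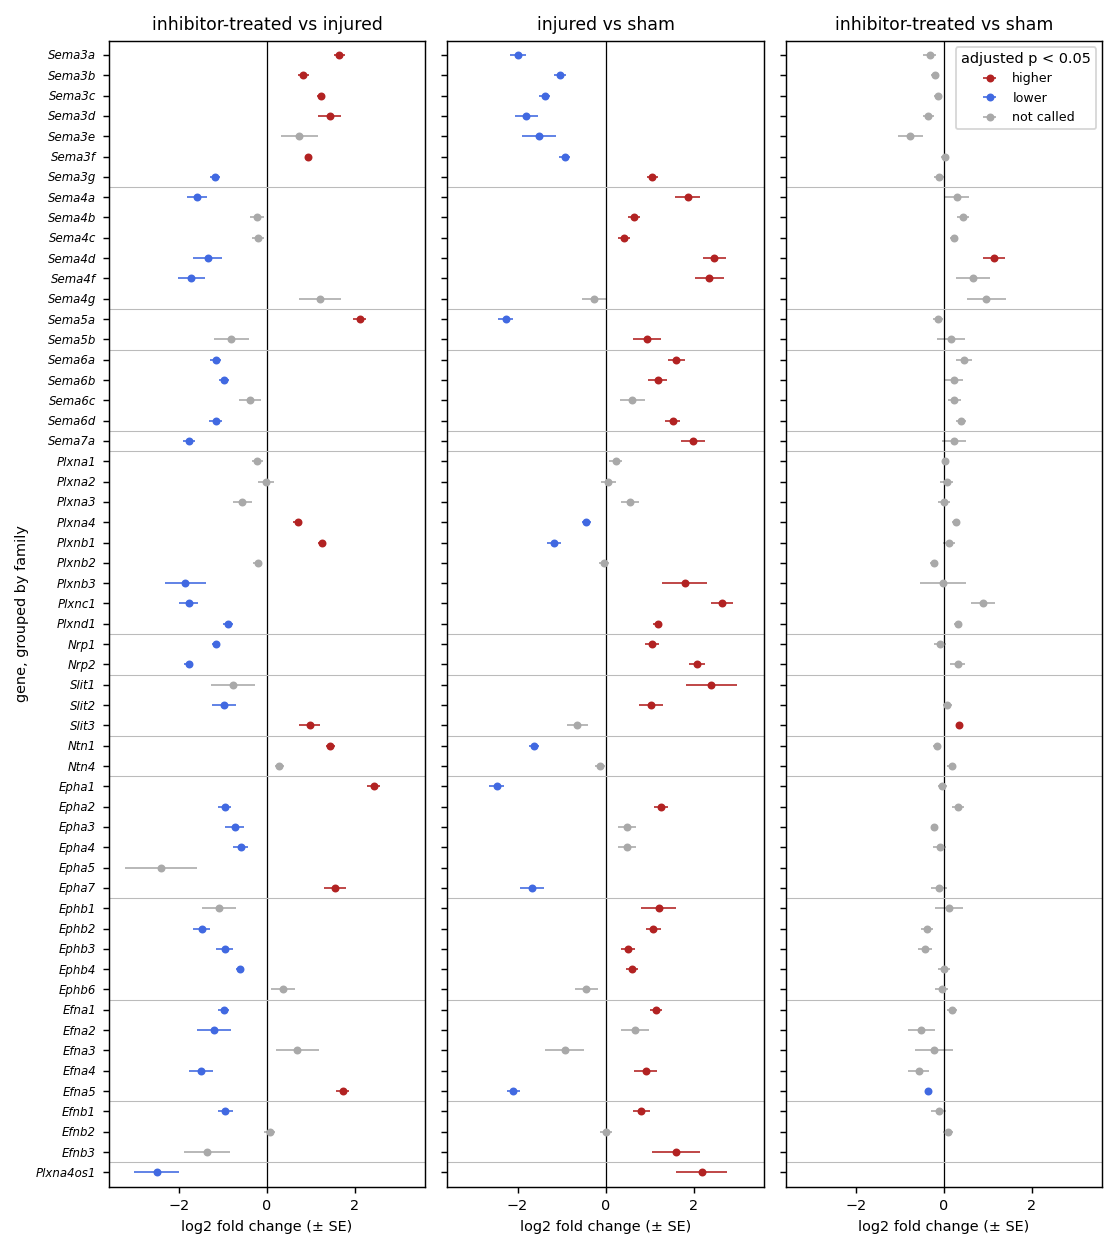
Log2 fold change (point) and its standard error (bar) from limma for each guidance gene, in inhibitor-treated against injured, injured against sham and inhibitor-treated against sham arteries (3 against 3 libraries each). Red points were called higher, blue points lower and grey points not called at an adjusted p of 0.05. The first panel has 13 red and 25 blue points, the second 28 and 13, and the third 2 and 1.

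Among the plexins, the signalling receptors of semaphorins, 3 rose and 2 fell in injured against sham arteries, out of 9. Of all genes 20.6% were called higher and 16.8% lower there. Plxnc1, the semaphorin 7A receptor, had the largest rise of all members: 47.5, 56.9 and 73.6 normalised counts with the inhibitor, 172, 229 and 213 in injured and 35.0, 23.4 and 37.0 in sham libraries. The 3 groups did not overlap. Its log2 fold change was −1.78 ± 0.22 (adjusted p = 0.000898) for inhibitor-treated against injured and 2.65 ± 0.25 (adjusted p = 0.000103) for injured against sham. Plxnd1, the semaphorin 3E receptor, had 2427, 2022 and 2180 with the inhibitor, 3782, 4180 and 4330 in injured and 1798, 1708 and 1853 in sham libraries. Plxnd1 had a log2 fold change of −0.89 ± 0.10 (adjusted p = 0.000748) with the inhibitor and of 1.19 ± 0.10 (adjusted p = 7.89e-05) with injury. Plxnb3 stayed low, at 8.18 to 20.2 with the inhibitor, 29.8 to 73.9 in injured and 7.01 to 20.7 in sham libraries. Its calls (adjusted p = 0.0208 and 0.0234) did not hold in every fit. The first was lost without inhibitor-treated replicate 1 (adjusted p = 0.0532) or 3 (adjusted p = 0.0554) or injured replicate 2 (adjusted p = 0.0739), and the second without injured replicate 2 (adjusted p = 0.0734) or 3 (adjusted p = 0.0555) or sham replicate 1 (adjusted p = 0.0727). Under quantile normalisation the second was 1.15 (adjusted p = 0.0962). Without the libraries that stood apart neither was called (adjusted p = 0.153 and 0.0781).

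Plxnb1, a semaphorin 4D receptor, was lower in injured arteries. It had 2265, 2182 and 2405 normalised counts with the inhibitor, 956, 902 and 1011 in injured and 1757, 2685 and 2065 in sham libraries. The injured libraries were lowest throughout. The fitted log2 fold change of Plxnb1 was 1.26 ± 0.09 (adjusted p = 0.000117) with the inhibitor and −1.17 ± 0.16 (adjusted p = 0.00066) with injury. Plxna4 had 1237, 1154 and 1380 with the inhibitor, 789, 731 and 813 in injured and 1039, 1065 and 1040 in sham libraries. With the inhibitor the log2 fold change of Plxna4 was 0.69 ± 0.10 (adjusted p = 0.00207), and with injury it was −0.44 ± 0.10 (adjusted p = 0.00972), the second with an adjusted p of 0.118 without the libraries that stood apart. Plxna4os1, the RNA gene on the opposite strand within Plxna4, had 2.85 to 5.45 normalised counts with the inhibitor, 14.6 to 39.8 in injured and 2.18 to 9.01 in sham libraries. It fell by 2.51 ± 0.52 with the inhibitor (adjusted p = 0.00839) and rose by 2.18 ± 0.58 with injury (adjusted p = 0.018). Neither call held without the libraries that stood apart (adjusted p = 0.0572 and 0.155). The second was also lost without injured replicate 1 (adjusted p = 0.0552) or 2 (adjusted p = 0.0726) and was 1.44 under quantile normalisation (adjusted p = 0.0843), and the counting's use of strand is not given in the sources used here.

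Plxnb2, the plexin with the highest mean over the 9 libraries, had 2876, 2662 and 3044 with the inhibitor, 3140, 3233 and 3618 in injured and 3403, 3674 and 3147 in sham libraries. It passed no test. Plxna1, Plxna2 and Plxna3 passed none either. Both neuropilins were higher in injured arteries. Nrp2 had 650, 641 and 730 with the inhibitor, 2169, 2387 and 2420 in injured and 523, 434 and 726 in sham libraries. The injured libraries were far above the rest. The log2 fold change of Nrp2 was −1.78 ± 0.10 (adjusted p = 4.91e-05) for inhibitor-treated against injured and 2.07 ± 0.18 (adjusted p = 7.49e-05) for injured against sham. Nrp1 had 1194, 1158 and 1161 with the inhibitor, 2609, 2444 and 2880 in injured and 1144, 1106 and 1585 in sham libraries, with log2 fold changes of −1.17 ± 0.09 (adjusted p = 0.000166) with the inhibitor and 1.06 ± 0.15 (adjusted p = 0.000982) with injury.

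Ntn1, the classical netrin, had the highest mean of the members over the 9 libraries: 6092, 5529 and 6227 with the inhibitor, 2004, 2195 and 2398 in injured and 7148, 6816 and 6305 in sham libraries. In injured libraries Plxnd1 had a higher mean (4097 against 2199). The groups did not overlap, and the injured libraries were lowest. The log2 fold change was 1.44 ± 0.10 (adjusted p = 0.000115) for inhibitor-treated against injured and −1.63 ± 0.12 (adjusted p = 3.06e-05) for injured against sham. Ntn4, a basement membrane netrin, had 2769, 2809 and 2398 with the inhibitor, 2146, 2184 and 2225 in injured and 2642, 2459 and 2071 in sham libraries. It passed no test; its log2 fold change with the inhibitor was 0.28 ± 0.09 (adjusted p = 0.0509).

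Slit3, the most abundant Slit, had 3640, 3410 and 3597 normalised counts with the inhibitor, 1298, 1728 and 2655 in injured and 3043, 2728 and 2669 in sham libraries. The groups did not overlap, but injured replicate 3 nearly reached the sham libraries. Its log2 fold change of 0.97 ± 0.24 with the inhibitor (adjusted p = 0.0168) was lost without inhibitor-treated replicate 1 (adjusted p = 0.0591), without injured replicate 2 (adjusted p = 0.0533) and without the libraries that stood apart (adjusted p = 0.125). The injured against sham value of −0.64 ± 0.23 did not pass (adjusted p = 0.0592), nor did edgeR's quasi-likelihood test (adjusted p = 0.0918). Slit3 did pass with DESeq2 (−0.58, adjusted p = 0.0466), in the authors' deposited table (adjusted p = 0.0461), in limma's fit of all 9 libraries (adjusted p = 0.0312), with sample weights (adjusted p = 0.000771) and without injured replicate 3 (−0.91, adjusted p = 0.00162). Slit2 had 260, 260 and 248 with the inhibitor, 399, 395 and 813 in injured and 263, 243 and 230 in sham libraries. On the log2 scale Slit2 differed by −0.97 ± 0.28 (adjusted p = 0.0296) with the inhibitor and by 1.03 ± 0.27 (adjusted p = 0.0162) with injury. The first was lost on leaving out any inhibitor-treated library (adjusted p = 0.0774 to 0.0819), and the second without sham replicate 2 (adjusted p = 0.0583) or 3 (adjusted p = 0.0515). Without the libraries that stood apart the first was lost as well (adjusted p = 0.0835). Slit1 was low, with 7.27 to 22.0 with the inhibitor, 14.6 to 28.6 in injured and 1.17 to 6.01 in sham libraries, and was higher in injured than in sham arteries (2.41 ± 0.57, adjusted p = 0.0109), with an adjusted p of 0.0725 without the libraries that stood apart. Under quantile normalisation it was 1.54 (adjusted p = 0.0548).

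The receptors of netrins and Slits, which the name rule does not take in, were called in both directions. Their list of 11 genes was chosen with earlier results of these data known, and Robo3, Dcc and Dscam were not tested. In inhibitor-treated against injured arteries 3 of 8 tested were higher and 5 lower, and in injured against sham arteries 5 were higher and 3 lower, so that all 8 were called in each, against 36.1% and 37.3% of all genes. Robo1 was near the threshold, with an adjusted p of 0.043 with the inhibitor and 0.0381 with injury. Unc5c, a netrin receptor of the repulsive response, had 1624, 1214 and 1233 normalised counts with the inhibitor, 243, 214 and 317 in injured and 1528, 1184 and 1174 in sham libraries. Unc5c had a log2 fold change of 2.40 ± 0.18 (adjusted p = 0.00014) with the inhibitor and of −2.34 ± 0.18 (adjusted p = 4.24e-05) with injury, with the injured libraries lowest as for Ntn1. Unc5d, a related receptor, was lower in level, at 55.4 to 80.7 with the inhibitor, 2.58 to 7.59 in injured and 56.6 to 89.1 in sham libraries, with log2 fold changes of 3.78 ± 0.43 (adjusted p = 0.00066) with the inhibitor and −3.77 ± 0.43 (adjusted p = 0.000276) with injury. Robo2, a Slit receptor, had 1.90 to 8.18 with the inhibitor, 29.8 to 87.2 in injured and 4.36 to 8.21 in sham libraries. The fitted log2 fold change of Robo2 was −3.48 ± 0.58 (adjusted p = 0.00353) with the inhibitor and 2.96 ± 0.47 (adjusted p = 0.00147) with injury.

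**Figure D3:**
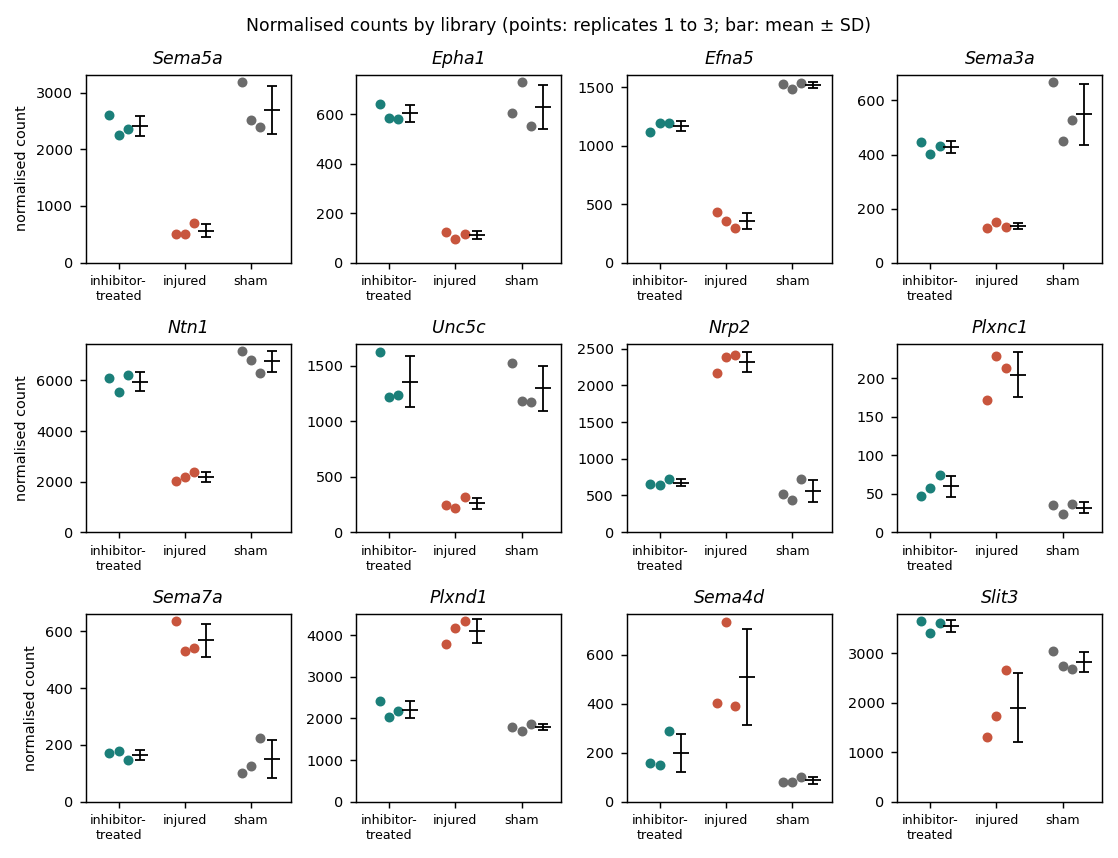
Normalised count of 11 guidance genes and of the netrin receptor gene Unc5c in each library, on linear axes from 0; points are replicates 1 to 3 and the bar is the mean ± SD (n = 3), with inhibitor-treated libraries left, injured libraries in the middle and sham libraries right. The injured points lie lowest for Sema5a, Epha1, Efna5, Sema3a, Ntn1, Unc5c and Slit3 and highest for Nrp2, Plxnc1, Sema7a, Plxnd1 and Sema4d.

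Of the EphA receptors, Epha1 had the lowest fitted log2 fold change of all members in injured against sham arteries, but its level cannot be told apart from that of a neighbour. Its levels were 644, 586 and 583 normalised counts with the inhibitor, 125, 95.8 and 117 in injured and 605, 729 and 554 in sham libraries. The inhibitor-treated and sham libraries overlapped, and the injured libraries were far below. The log2 fold change was 2.42 ± 0.14 (adjusted p = 6.52e-05) for inhibitor-treated against injured and −2.48 ± 0.17 (adjusted p = 2.75e-05) for injured against sham. Epha1 lies on the minus strand of chromosome 6 at 42358487 to 42373268 (GRCm38), and 236 of its 3928 exonic bases, 6.01%, overlap exons of Zyx on the other strand. Zyx encodes zyxin, a focal adhesion protein of much higher level (15426 ± 1231 with the inhibitor, 3610 ± 88.6 in injured and 13854 ± 830 in sham libraries; SD, n = 3 each). Zyx had a log2 fold change of 2.10 ± 0.10 with the inhibitor (adjusted p = 3.71e-05) and −1.95 ± 0.11 with injury (adjusted p = 1.66e-05). The use of strand in the counting is not given in the sources used here, so reads of the pair cannot be told apart where they overlap. At the Zyx level per kb, 236 bases would hold 675 normalised counts with the inhibitor, 158 in injured and 607 in sham libraries. That is about as much as the whole Epha1 level, whose mean was 604 with the inhibitor, 113 in injured and 629 in sham libraries. If the counting ignored strand and gave such reads to Epha1, neither its level nor its fall could be told apart from those of Zyx.

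Epha7, a receptor for A-type ephrins, also fell in injured arteries, with 111, 111 and 96.3 with the inhibitor, 39.4, 26.6 and 43.8 in injured and 92.1, 135 and 125 in sham libraries. With the inhibitor the log2 fold change of Epha7 was 1.54 ± 0.25 (adjusted p = 0.00287), and with injury it was −1.67 ± 0.27 (adjusted p = 0.00181). Epha2, a receptor of epithelial and endothelial cells, differed the other way, with 131, 150 and 154 with the inhibitor, 273, 260 and 320 in injured and 112, 108 and 133 in sham libraries. On the log2 scale Epha2 differed by −0.96 ± 0.15 (adjusted p = 0.00224) with the inhibitor and by 1.26 ± 0.17 (adjusted p = 0.000582) with injury. Epha3, the most abundant EphA gene, had 1275, 1180 and 1226 with the inhibitor, 1920, 1549 and 2904 in injured and 1513, 1413 and 1440 in sham libraries. Its fall with the inhibitor (−0.74 ± 0.21, adjusted p = 0.0325) was lost on leaving out any inhibitor-treated library or injured replicate 1 (adjusted p = 0.0621 to 0.0949). The injured against sham value of 0.49 ± 0.21 did not pass (adjusted p = 0.0967) and reached 0.69 without injured replicate 2 (adjusted p = 0.0226). Epha4 was called lower with the inhibitor (−0.60 ± 0.18, adjusted p = 0.0338), and not without any one inhibitor-treated library or injured replicate 2 (adjusted p = 0.0585 to 0.108). Nor was Epha4 called under quantile normalisation (adjusted p = 0.066) or without the libraries that stood apart (adjusted p = 0.18). Epha5 was tested only with the inhibitor, at 0 to 5.70 against 14.6 to 20.3 in injured libraries, and did not pass (adjusted p = 0.0563).

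Of the 5 EphB receptors, 4 were higher in injured than in sham arteries and 3 were lower in inhibitor-treated than in injured arteries. Over all genes those shares were 20.6% and 18.5%. Ephb4, a receptor of venous endothelium and the most abundant of them, had 1320, 1355 and 1399 normalised counts with the inhibitor, 2133, 2113 and 2011 in injured and 1580, 1116 and 1464 in sham libraries. Ephb4 had a log2 fold change of −0.62 ± 0.08 (adjusted p = 0.00117) with the inhibitor and of 0.60 ± 0.14 (adjusted p = 0.0109) with injury, the second with an adjusted p of 0.0593 without the libraries that stood apart. Ephb2 had 160, 121 and 128 with the inhibitor, 403, 309 and 450 in injured and 180, 168 and 188 in sham libraries. The fitted log2 fold change of Ephb2 was −1.49 ± 0.19 (adjusted p = 0.00103) with the inhibitor and 1.09 ± 0.17 (adjusted p = 0.00142) with injury. Ephb3 had 310, 210 and 253 with the inhibitor, 562, 404 and 540 in injured and 399, 321 and 327 in sham libraries. It fell by 0.96 ± 0.19 with the inhibitor (adjusted p = 0.00743). Its rise with injury (0.51 ± 0.17, adjusted p = 0.0419) remained past the threshold without injured replicate 2 but not without any other single library (adjusted p = 0.0512 to 0.141). That rise was also lost under quantile normalisation (adjusted p = 0.0812), with sample weights (adjusted p = 0.118) and without the libraries that stood apart (adjusted p = 0.0597). Ephb1, at 46.4 to 121 in injured and 23.0 to 43.4 in sham libraries, rose with injury (1.21 ± 0.41, adjusted p = 0.047). That call was lost without injured replicate 1 or 2 or sham replicate 1 or 3 (adjusted p = 0.0744 to 0.153), and under quantile normalisation it was 0.65 (adjusted p = 0.254). Without the libraries that stood apart Ephb1 had an adjusted p of 0.154. Ephb6, which lacks kinase activity, passed no test.

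The ephrin-A ligands were called in both directions. Efna5, with their highest mean over the 9 libraries, had 1119, 1194 and 1198 normalised counts with the inhibitor, 431, 353 and 295 in injured and 1531, 1489 and 1539 in sham libraries. The 3 groups did not overlap, in the order injured, inhibitor-treated, sham. With the inhibitor the log2 fold change of Efna5 was 1.72 ± 0.15 (adjusted p = 0.000209), and with injury it was −2.10 ± 0.15 (adjusted p = 3.03e-05). Efna1, a ligand induced by tumour necrosis factor in endothelium, differed the other way, with 251, 303 and 285 with the inhibitor, 616, 572 and 487 in injured and 241, 252 and 250 in sham libraries. On the log2 scale Efna1 differed by −0.99 ± 0.13 (adjusted p = 0.00137) with the inhibitor and by 1.15 ± 0.13 (adjusted p = 0.000311) with injury. Efna4 was low, at 22.8 to 29.4 with the inhibitor, 56.9 to 91.9 in injured and 36.0 to 44.6 in sham libraries. It fell by 1.51 ± 0.27 with the inhibitor (adjusted p = 0.00458). Its rise with injury (0.91 ± 0.26, adjusted p = 0.0263) was lost without injured replicate 1 or sham replicate 1 or 2 (adjusted p = 0.0789 to 0.0885) and under quantile normalisation (0.37, adjusted p = 0.337), and 10.5% of its exonic bases overlap a gene on the other strand. Efna2, called lower with the inhibitor (−1.20 ± 0.39, adjusted p = 0.0484), was called without inhibitor-treated or injured replicate 2 but not without any other single library (adjusted p = 0.0685 to 0.136). The Efna2 call was also lost with edgeR (adjusted p = 0.0563), quantile normalisation (adjusted p = 0.109) and sample weights (adjusted p = 0.0829). It was lost too with a minimum mean of 50 (adjusted p = 0.0538) and without the libraries that stood apart (adjusted p = 0.092). Efna3, with means of 18.6 with the inhibitor, 10.9 in injured and 21.4 in sham libraries, passed no test. Of its exonic bases 14.1% overlap Gm15998 on the other strand, which had 113 ± 6.61 with the inhibitor, 12.5 ± 5.44 in injured and 121 ± 20.3 in sham libraries (SD, n = 3 each). Gm15998 differed by 3.16 ± 0.35 with the inhibitor (adjusted p = 0.00058) and by −3.25 ± 0.36 with injury (adjusted p = 0.000228). At its level per kb the shared bases would hold 21.0 counts with the inhibitor, 2.33 in injured and 22.6 in sham libraries, so the Efna3 level cannot be told apart from it if strand was ignored.

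Of the ephrin-B ligands, Efnb2, the arterial endothelial marker, passed no test: its levels were 1342, 1114 and 1162 with the inhibitor, 1056, 1088 and 1329 in injured and 1299, 1053 and 1089 in sham libraries. All groups overlapped. Efnb1 had 195, 194 and 160 with the inhibitor, 426, 314 and 329 in injured and 222, 157 and 228 in sham libraries, with log2 fold changes of −0.95 ± 0.16 (adjusted p = 0.00397) with the inhibitor and 0.81 ± 0.20 (adjusted p = 0.0122) with injury. Efnb3 was low, with 14.3, 45.5 and 16.3 in injured and 6.01, 4.69 and 9.80 in sham libraries. Its call with injury (1.60 ± 0.54, adjusted p = 0.0474) was lost without any one sham library (adjusted p = 0.0547 to 0.143) and was 0.83 under quantile normalisation (adjusted p = 0.239). Efnb3 was not tested without injured replicate 2, its highest library, as its mean then fell below 10. Nor was it tested without the libraries that stood apart.

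Between inhibitor-treated and sham arteries 3 of 52 members (5.77%) passed in limma, close to the 6.08% of all genes. Of the 3 calls, 0 held in every fit that left out a library. Sema4d was higher (1.13 ± 0.26, adjusted p = 0.0405), with adjusted p-values of 0.0473 to 0.136 when a library was left out and no call without inhibitor-treated replicate 1 or 2 or sham replicate 1 or 2. Slit3 was higher (0.35 ± 0.07, adjusted p = 0.0286), called without sham replicate 1 but not without any other single library (adjusted p = 0.0657 to 0.113). Without the libraries that stood apart Slit3 had an adjusted p of 0.112. Efna5 was lower (−0.37 ± 0.06, adjusted p = 0.0147), with no call without inhibitor-treated replicate 1 or 2 or sham replicate 1 (adjusted p = 0.055 to 0.0666). In each of them the 3 inhibitor-treated libraries lay on one side of the 3 sham libraries, as in 27.9% of all genes.

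Per length, the make-up of the semaphorin group differed between groups more than its total. Summed over 20 genes, normalised counts per kb of exon were 2224 ± 32.3 with the inhibitor, 2071 ± 71.1 in injured and 2325 ± 62.6 in sham libraries (SD, n = 3 each). Class 3 genes made up 72.3 ± 0.587% of that sum with the inhibitor, 53.5 ± 1.37% in injured and 76.7 ± 2.87% in sham libraries. Classes 4, 6 and 7 made up 21.6 ± 1.06% with the inhibitor, 44.5 ± 1.86% in injured and 16.9 ± 3.54% in sham libraries. Ntn1 was first of the members per kb with the inhibitor (948) and in sham libraries (1076) and had rank 6 in injured libraries (350). Ntn4, which passed no test, was first in injured libraries (584), followed by Plxnd1 (561). These are descriptions without a test.

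Ratios within a library do not depend on its scaling. Efna1 over Efna5, per kb, was 0.526 ± 0.033 with the inhibitor, 3.45 ± 0.267 in injured and 0.360 ± 0.013 in sham libraries. Plxnd1 over Plxnb1 was 1.27 ± 0.118 with the inhibitor, 5.64 ± 0.445 in injured and 1.12 ± 0.259 in sham libraries. Sema3g over Sema3f was 0.310 ± 0.027 with the inhibitor, 1.35 ± 0.0996 in injured and 0.348 ± 0.105 in sham libraries. In each of these pairs the injured libraries lay apart from the other 6. Ntn1 over Ntn4 was 1.34 ± 0.189 with the inhibitor, 0.599 ± 0.043 in injured and 1.69 ± 0.107 in sham libraries, lowest in the injured group.

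**Figure D4:**
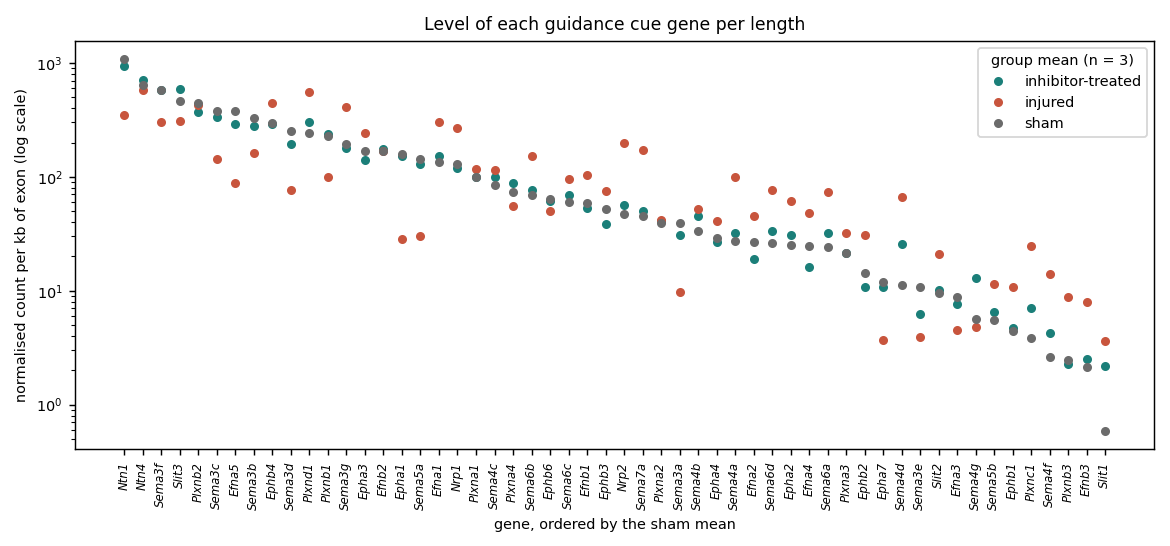
Mean normalised count per kb of exon (log axis) of each protein-coding guidance gene with a sham value, in inhibitor-treated, injured and sham libraries (n = 3 each), ordered by the sham mean. Most inhibitor-treated points lie close to the sham points. Injured points lie well below for Ntn1, Sema5a, Epha1 and Efna5 and well above for Nrp2, Sema7a and Plxnc1.

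Genes that act with the guidance cues were counted from lists chosen with earlier results of these data known. Their calls stand beside 36.1% of all genes called in inhibitor-treated against injured arteries, 37.3% in injured against sham arteries and 6.08% in inhibitor-treated against sham arteries. Of the 8 tested non-plexin semaphorin receptors, 1 was higher and 4 lower in inhibitor-treated than in injured arteries, and 5 were higher and 1 lower in injured than in sham arteries (62.5% and 75.0% called). Cd72, the semaphorin 4D receptor of B cells and also found on macrophages, had 38.9, 27.5 and 32.7 normalised counts with the inhibitor, 636, 895 and 441 in injured and 20.0, 24.6 and 14.2 in sham libraries. Cd72 had a log2 fold change of −4.23 ± 0.27 (adjusted p = 8.54e-05) with the inhibitor and of 4.96 ± 0.30 (adjusted p = 1.85e-05) with injury, and the injured libraries were far above the rest. Kdr, the endothelial growth factor receptor that pairs with neuropilins, fell by 1.39 ± 0.11 with the inhibitor (adjusted p = 0.000185) and rose by 1.67 ± 0.22 with injury (adjusted p = 0.000558). Cd44, an adhesion receptor, had 1242 to 1837 with the inhibitor, 1823 to 3045 in injured and 644 to 812 in sham libraries. It was the list's 1 call between inhibitor-treated and sham arteries (1.09 ± 0.15, adjusted p = 0.00465).

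Of 10 other guidance ligands, 2 were higher and 3 lower in inhibitor-treated than in injured arteries. Of 9 tested with injury, 3 were higher and 2 lower (50.0% and 55.6% called). Draxin, a secreted protein that binds netrin and Dcc, had 75.9, 91.7 and 132 normalised counts with the inhibitor, 14.3, 7.59 and 3.44 in injured and 0, 0 and 1.09 in sham libraries. It was the 1 call of its list between inhibitor-treated and sham arteries (adjusted p = 0.000276), and no fold change is given because the sham libraries held hardly any reads. Reln, an extracellular glycoprotein that guides neurons, fell by 1.58 ± 0.26 with the inhibitor (adjusted p = 0.00303) and rose by 1.88 ± 0.28 with injury (adjusted p = 0.00103).

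Of 30 transducers of semaphorin, plexin and Slit signals, 9 were higher and 10 lower in inhibitor-treated than in injured arteries (63.3% called), and 10 higher and 8 lower in injured than in sham arteries. Srgap1, a GTPase-activating protein downstream of Robo, had log2 fold changes of −2.63 ± 0.27 (adjusted p = 0.000458) with the inhibitor and 2.56 ± 0.22 (adjusted p = 7.22e-05) with injury. Pak1, a kinase activated by Rac, had −2.26 ± 0.23 (adjusted p = 0.000433) with the inhibitor and 2.05 ± 0.19 (adjusted p = 9.72e-05) with injury, and Fes, a kinase of semaphorin 3A signalling, had −2.02 ± 0.11 (adjusted p = 5.26e-05) with the inhibitor and 2.28 ± 0.15 (adjusted p = 2.52e-05) with injury. Of 21 Eph and ephrin transducers, 5 were higher and 5 lower with the inhibitor, and 8 higher and 4 lower with injury (47.6% and 57.1% called). Ptpro, a phosphatase of Eph receptors, had −2.89 ± 0.27 (adjusted p = 0.000319) with the inhibitor and 3.23 ± 0.33 (adjusted p = 0.000154) with injury. Ngef, the exchange factor ephexin that acts downstream of EphA receptors, ran opposite, with 1.98 ± 0.16 (adjusted p = 0.000192) with the inhibitor and −2.25 ± 0.15 (adjusted p = 2.59e-05) with injury. Between inhibitor-treated and sham arteries the calls were Arhgef12 in the first list and Adam10 and Abl2 in the second, all higher.

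Markers of several cell types differed between the groups in which the guidance genes differed. Over all genes, 20.6% were called higher and 16.8% lower with injury, and 17.6% higher and 18.5% lower with the inhibitor. Smooth muscle markers, the label's own cell type, summed to 581106 to 590683 normalised counts over 8 genes with the inhibitor, 148397 to 173529 in injured and 494752 to 664225 in sham libraries, and 7 of 8 were lower in injured than in sham arteries. Macrophage and monocyte markers summed to 4840 to 8724 with the inhibitor, 27679 to 41351 in injured and 2949 to 4124 in sham libraries, and all 10 of 10 were higher in injured than in sham arteries and lower with the inhibitor. Fibroblast markers summed over 9 genes to 44446 to 46201 with the inhibitor, 92772 to 125294 in injured and 53363 to 64404 in sham libraries. Cell cycle genes summed over 10 genes to 1075 to 2595 with the inhibitor, 2134 to 3804 in injured and 321 to 395 in sham libraries. Skeletal muscle markers summed over 10 genes to 2349 to 36808 with the inhibitor, 31288 to 521137 in injured and 5006 to 29865 in sham libraries. Of these, 7 were higher with injury and 2 lower with the inhibitor. Adipocyte markers summed over 7 genes to 27335 to 35637 with the inhibitor, 55883 to 87902 in injured and 30834 to 72245 in sham libraries. With the inhibitor 1 was higher and 6 lower, and with injury 2 were higher and 1 lower. The part of these cells in the guidance results was not tested.

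Lymphocyte markers summed over 8 genes to 521, 283 and 1318 with the inhibitor, 300 to 585 in injured and 26.0 to 78.4 in sham libraries. In inhibitor-treated against sham arteries, where Sema4d was higher, so were 6 of 8 lymphocyte markers. The same held for 3 of 3 tested neutrophil, 6 of 6 erythroid, 2 of 10 macrophage and 3 of 10 cell cycle markers. Lower there were 2 of 9 fibroblast markers. Of all genes, 5.15% were higher and 0.934% lower in that comparison. Neutrophil markers, over the 5 in the tables, summed to 1831 to 2179 with the inhibitor, 1076 to 5307 in injured and 25.8 to 53.4 in sham libraries. Erythroid markers, over the 6 in the tables, summed to 37779 to 88717 with the inhibitor, 77.8 to 183 in injured and 175 to 356 in sham libraries. Schwann cell and nerve markers summed over 10 genes to 7005 to 8217 with the inhibitor, 3421 to 4321 in injured and 7741 to 8235 in sham libraries. Most of that sum was Ncam1, an adhesion gene, with 5331 to 5979 with the inhibitor, 740 to 1101 in injured and 5986 to 6765 in sham libraries. The other 9 genes summed to 1674 to 2598 with the inhibitor, 2427 to 3555 in injured and 1218 to 1956 in sham libraries. Of the 10, 1 (Ncam1) was higher and 4 lower in inhibitor-treated than in injured arteries, and 6 were higher and 1 (Ncam1) lower in injured than in sham arteries. No marker was at 0 in every library. Their part in the results was not tested.

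**Figure D5:**
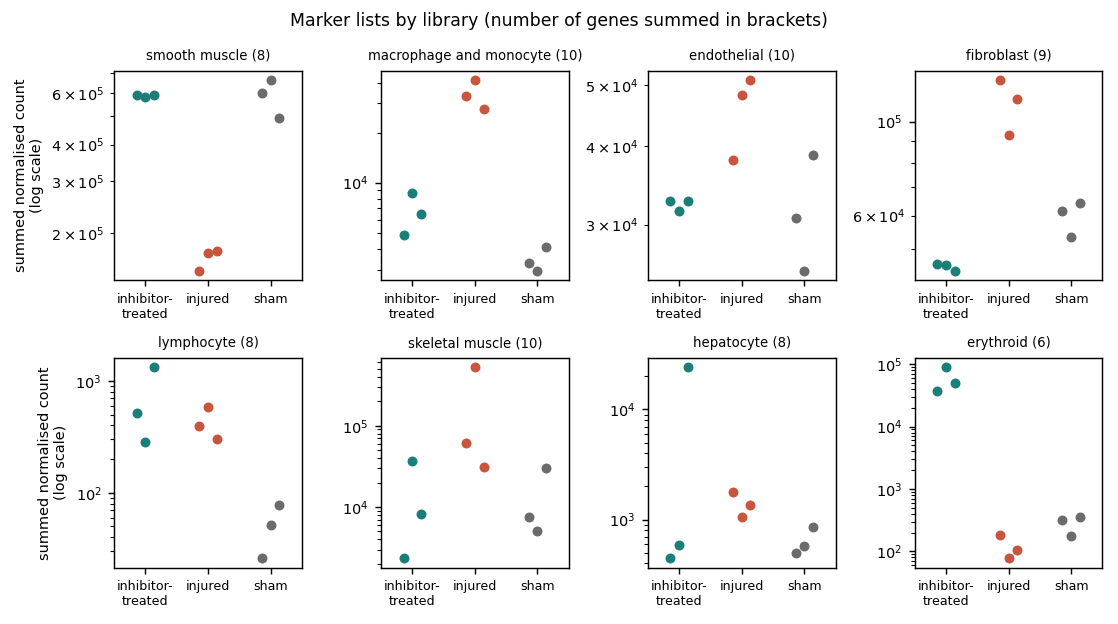
Summed normalised count (log axes) of marker genes of 8 cell types in each library, with the number of genes summed in brackets; points are replicates 1 to 3 of the inhibitor-treated, injured and sham groups. Smooth muscle sums are lowest and macrophage and monocyte sums highest in the 3 injured libraries, and the inhibitor-treated libraries are the highest for erythroid markers.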

How the data were processed

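RNA-seq gene tables of 9 libraries were used, 1 table for each pair of groups. Per the file headers, each deposited table holds normalised counts per gene and library (a signal scaled by 1 factor per library), with the authors' log2 fold change, p-value and adjusted p-value. The build was mm10 (GRCm38), per the submitters' processing notes, and the aligner, the counting and its strand setting were not given in the sources used here. Dividing each deposited signal column by the value of 1 read gave whole reads for 100% of values (within 0.01 of a read).

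Limma 3.58.1 (R 4.3.3) was fitted to each table by itself, to log2(normalised count + 1), with group as its term and a prior variance that follows the mean. Genes with a mean of at least 10 entered, p-values were two-sided, and Benjamini-Hochberg adjustment ran over all of them. Fold changes are on that log2 scale, so those of low genes are understated. A permutation test over 3 against 3 libraries has a smallest p of 0.1 and was not used. Errors are SE for fold changes and SD (n = 3) for levels. Levels across the 3 groups are recovered reads divided by 1 median-of-ratios factor per library over 16750 genes present in at least 2 tables. Lengths are exon unions of the GENCODE annotation of GRCm38. Replicates had Pearson correlations of log2 values from 0.953 to 0.987, and no pair agreed within sampling noise.

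The members, the pathway and marker lists and the libraries said to stand apart were chosen with earlier results of these data known. Values of each library are given for the 8 largest rises and falls per comparison, among called members with a mean of at least 100 and groups that do not overlap. They are also given for the highest member of each family and for members called in both comparisons with injured libraries, with ranges for low members. Other called members were named after their values were seen. Nothing says whether the replicate numbers pair the libraries. Deviations from the group means correlated at −0.071 to 0.205 between equal numbers. Unequal numbers were not compared, so these values cannot decide on pairing. Alternatives used edgeR 4.0.16 and DESeq2 1.42.0 on recovered reads, other scalings, pseudocounts and filters, a fit of all 9 libraries, sample weights, a replicate block, the authors' deposited log2 fold changes and p-values, and leaving out libraries. The code of the fit was run on simulated counts with the same dispersion for every gene. That checks the code and not the calls made here.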

Additional observations from a re-analysis of the deposited data

How the results depend on the processing

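Of the 38 members called between inhibitor-treated and injured arteries, 31 were called in every fit that left out 1 library and 29 in every alternative run. Of the 41 called between injured and sham arteries these counts were 31 and 27. Between inhibitor-treated and sham arteries, the 2 higher members became 0 in the fit of all 9 libraries, 1 with edgeR, 1 with quantile normalisation and 0 to 3 on leaving out a library. The 1 lower member became 0 in the fit of all 9 libraries and 0 to 1 on leaving out a library. Of all genes, 4.59% were called in the fit of all 9 libraries, 5.56% with edgeR and 5.18% with quantile normalisation. That share was 3.21% to 5.37% on leaving out a library. The cause was not tested.

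Leaving out a library gave 12 to 16 higher and 19 to 26 lower members for inhibitor-treated against injured arteries. That was 55.4% to 75.0% of the members tested, against 24.2% to 47.1% of all genes. For injured against sham arteries 21 to 25 were higher and 12 to 15 lower, or 61.8% to 72.7%, against 26.8% to 45.1% of all genes. EdgeR gave 13 and 24, and 28 and 13, with 35.3% and 37.2% of all genes called. DESeq2 gave 15 and 28, and 29 and 14, with 40.1% and 39.4% of all genes called. With the replicate block the counts were 13 and 24, 25 and 13, and 2 and 1, with 34.0%, 35.4% and 5.42% of all genes called. The block moved 5 calls past an adjusted p of 0.05: Efna2 (0.0619) and Epha4 (0.0565) with the inhibitor, and Efnb3 (0.0712), Ephb1 (0.0567) and Sema4c (0.0657) with injury. Whether the replicate numbers pair the libraries is not known.

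No called member changed sign in any alternative run. Of those not called, Efnb2 with the inhibitor ran from −0.013 to 0.17 on leaving out a library. With injury it ran from −0.097 to 0.098 and was −0.073 with sample weights. Plxnb2 with injury ran from −0.10 to 0.016 on leaving out a library and was 0.12 under quantile normalisation. With 3 libraries a group, values of low members (Slit1, Efnb3, Plxnb3, Plxna4os1, Epha5) rest on few reads.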
